A study of Homo sapiens with 56 samples.

Results

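SW1417 is an established cell line from a human colorectal adenocarcinoma. Its response to 2-methylisocitrate (2-MiCit) was measured by RNA sequencing in 8 of the 56 libraries of a series on 7 colorectal cancer lines. The 4 treated libraries came from SW1417 cells given 10 mM 2-MiCit and the 4 control libraries from SW1417 cells given water, the vehicle; the genotype of all 8 was labelled wild-type and the cell type epithelial. All columns of these 8 libraries in the deposited count table were used, and 14089 of its 16454 genes passed the filter on low counts and were tested. The labels number the libraries 1 to 4 in each group and do not say whether each came from its own culture; the p-values therefore reflect the spread among the 8 libraries, part or all of which may be technical. How long the cells were treated is not stated in the sources used here, the growth protocol names other lines of the series, and none of the 8 libraries was labelled as having received a chemotherapy drug.

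2-MiCit is an intermediate of the methylcitrate cycle, by which bacteria and fungi break down propionate. It is isocitrate with an added methyl group, and so a relative of the tricarboxylic acid that aconitase makes from citrate and that the isocitrate dehydrogenases consume. Human cells clear propionate by another route, through propionyl-CoA carboxylase (PCCA and PCCB) and methylmalonyl-CoA mutase (MMUT). The title of the series places the metabolite in the tumour microbiota and asks how it modulates chemotherapy. The comparison of treated with control SW1417 cells asks which genes of this line change when the metabolite is added alone.

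The 8 libraries held 32.3 to 45.4 M counts each, with 3.83% to 4.37% of them from the mitochondrial genome. Of 12 genes of colorectal epithelial identity, 11 were present, and their summed level was 10948 to 12128 CPM (counts per M of the library's counts) in control and 10875 to 11030 CPM with 2-MiCit. Genes that define other cell types were at or near 0: the fibroblast genes (3 of 10 with a count) summed to at most 1.48 CPM in any library, CD14 had at most 3 counts and PECAM1 at most 7. The 10 endothelial genes summed to 53.3 to 56.0 CPM in all 8 libraries, nearly all of it EGFL7, and the neural genes, mostly TUBB3 and SYT1, to 41.4 to 45.7 CPM in control and 36.4 to 41.5 CPM with 2-MiCit. The leukocyte genes (4 of 10 with a count) summed to 26.5 to 29.1 CPM in control and 19.9 to 22.3 CPM with 2-MiCit, nearly all of it from CD68 (-0.49, log2 fold change, adjusted p = 0.000438), a lysosomal glycoprotein, and CORO1A (-0.33, adjusted p = 0.00426), an actin-binding protein; their part in the results was not tested. On the first principal component, which held 19.6% of the variance, 2-MiCit replicate 1 stood apart at 36.6, with the other 7 libraries between -22.9 and 5.48.

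At an adjusted p below 0.05 in edgeR's quasi-likelihood test with Benjamini-Hochberg adjustment (the rule by which a gene is called below), 414 genes were higher with 2-MiCit (2.94% of those tested) and 570 lower (4.05%), 984 in all (6.98%). The changes were small. Called genes had a median absolute log2 fold change of 0.15, and only 12 called genes were over 1.5-fold higher and 12 over 1.5-fold lower. The libraries were close to each other, with a biological coefficient of variation of 0.0692, so that changes of this size could be called. Over all tested genes the median log2 fold change was 0.00029. For scale, 927 tested genes (6.58%) had all 4 treated libraries above all 4 controls and 1082 (7.68%) had them below, and 29 of the 984 called genes had groups that overlapped.

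The counts of called genes depended on how the counts were scaled and on single libraries. The authors' normalised table scales each gene in each library by its own factor, and with that factor as an offset in the fit (the gene-specific offset below) 77 genes were called higher and 133 lower. Of the genes called with the offset, 198 were among the 984, and 983 of the 984 kept their direction. The median SE of the log2 fold change was 0.067 with the offset and 0.049 without it. When 1 library was left out, 187 to 460 genes were called higher and 303 to 670 lower, the fewest without 2-MiCit replicate 3 and the most without 2-MiCit replicate 4. The counts were also over 1.5 times smaller without control replicate 1 (231 higher and 367 lower), control replicate 3 (246 and 336), 2-MiCit replicate 1 (231 and 372) or 2-MiCit replicate 2 (196 and 344), and in 1 fit over 24 libraries of 3 lines (211 and 227). Below, the count under the offset is given with the count of a gene list. Each list count is to be read against the count over all genes in the same fit. Of 14089 tested genes that was 414 higher and 570 lower, and 77 and 133 with the offset. The lists were written with results on other lines of the series known, so their counts are descriptions. A gene whose call ended when 1 library was left out is marked, with the number of such fits and the highest adjusted p. A value in brackets after a gene, or after rose by or fell by, is a log2 fold change unless another quantity is named.

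**Figure D1:**
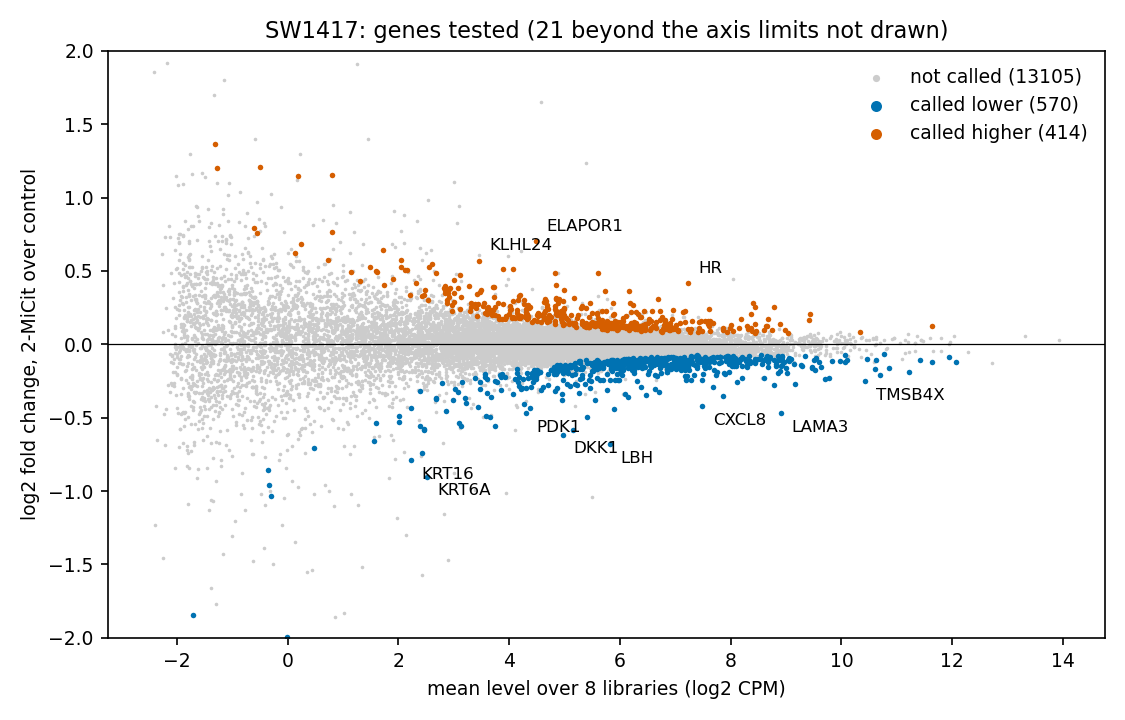
Log2 fold change of 2-MiCit over control (vertical axis) against mean level in log2 CPM over the 8 libraries (horizontal axis) for the genes tested in SW1417; orange points are the 414 genes called higher, blue points the 570 called lower, grey points the rest, and 21 genes lie beyond the axis. Above 5 CPM the called genes lie between -0.90 (KRT6A) and 0.70 (ELAPOR1).

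LAMA3, ITGA2 and PLAUR were lower with 2-MiCit. Laminin-332 is the basement membrane protein to which hemidesmosomes attach and LAMA3 and LAMB3 encode chains of it; the integrins are its receptors, and urokinase (PLAU) and its receptor (PLAUR) start the breakdown of matrix at the cell surface. The promoters of LAMA3 and PLAUR are shown because they hold the letters TGANTCA, the site of AP-1, a dimer of FOS and JUN proteins that drives many genes of migration. Both are from RefSeq (GRCh38.p14), 250 bases up to the start listed there, 5′ to 3′ on the gene's strand, with TGANTCA in capitals. LAMA3 is at chr18:23872770-23873019 on the plus strand, inside the gene (chr18:23689443-23956222 in GENCODE 29), and PLAUR is at chr19:43670170-43670419 on the minus strand.
LAMA3: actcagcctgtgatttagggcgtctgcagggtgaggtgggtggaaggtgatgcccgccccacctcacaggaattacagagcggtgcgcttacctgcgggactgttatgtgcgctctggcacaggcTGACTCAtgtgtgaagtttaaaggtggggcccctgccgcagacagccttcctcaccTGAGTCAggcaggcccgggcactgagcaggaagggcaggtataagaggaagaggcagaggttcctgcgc
PLAUR: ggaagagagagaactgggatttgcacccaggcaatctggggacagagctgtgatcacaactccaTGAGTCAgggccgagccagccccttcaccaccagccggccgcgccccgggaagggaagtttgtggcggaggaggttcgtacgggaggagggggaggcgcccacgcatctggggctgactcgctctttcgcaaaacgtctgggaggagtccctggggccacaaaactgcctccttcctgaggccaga
The first bases of the matches are at -125 and -69 from the listed start of LAMA3, which lies inside the gene, and at -186 from that of PLAUR. Which start of LAMA3 the cells used was not tested. Of 12 tested genes of this list with a promoter, 3 held the letters on either strand within 250 bases before and 50 after the start (LAMA3, PLAUR and SERPINB2), against 7.76% of 27305 promoters and 4.59% of those of tested genes. The same search found the letters in 1 of 18 promoters of immediate early genes, 1 of 10 of ERK-responsive genes and 0 of 2 of keratins; a match is a description and not a binding site.

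LAMA3 fell by 0.47 on the log2 scale and had the smallest p of all genes tested (log2 fold change -0.47, SE 0.024, adjusted p = 6.72e-08). The control libraries held 557, 555, 547 and 569 CPM and the treated libraries 412, 408, 404 and 386 CPM. All treated values were below all control values, with a gap far wider than the spread within either group. LAMB3 was at 74.5 and 73.7 CPM and was not called (log2 fold change -0.015, SE 0.026, adjusted p = 0.803). ITGA2, the alpha chain of a collagen and laminin receptor, had 78.4, 83.0, 77.4 and 79.5 CPM in control and 64.3, 62.9, 61.4 and 59.1 CPM with 2-MiCit (log2 fold change -0.36, SE 0.032, adjusted p = 1.51e-05). PLAUR held 69.2, 72.7, 66.5 and 64.4 CPM in the control libraries and 50.3, 51.7, 51.1 and 47.3 CPM in the treated ones (log2 fold change -0.44, SE 0.04, adjusted p = 1.51e-05). In both genes the groups were separate. ITGB1, the beta chain that pairs with ITGA2, fell by 0.11 (adjusted p = 0.0125), PLAU by 0.20 (adjusted p = 0.0238) and SERPINB2, a urokinase inhibitor near 1.05 CPM, by 0.96 (adjusted p = 0.0158). In all, 7 of 17 tested members of a list of laminin-332, integrins and urokinase were lower (4.05% of all genes were) and none higher, with a median of -0.061; 4 were called with the offset. This list was drawn up after the values of its leading genes had been seen and supports nothing by its count. The calls of some members ended in at least 1 of the 8 fits that left out a library: PLAU (6 of 8 fits, up to 0.0844 without control replicate 1) and SERPINB2 (3 of 8 fits, up to 0.0647 without control replicate 3).

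Most keratins of the list were lower. Keratins build the intermediate filaments of epithelia: KRT8, KRT18, KRT19 and KRT20 are those of the colon, KRT7 is of other simple epithelia, and KRT6A, KRT16 and KRT17 belong to stratified epithelia and are raised in wounds. KRT6A had 8.02, 8.18, 6.66 and 6.87 CPM in control and 3.72, 4.21, 3.92 and 4.03 CPM with 2-MiCit, the largest fall of any called gene above 5 CPM (log2 fold change -0.90, SE 0.093, adjusted p = 5.02e-05). KRT16 went from 6.67, 6.09, 5.76 and 5.06 CPM to 3.57, 3.76, 3.18 and 3.14 CPM (log2 fold change -0.79, SE 0.11, adjusted p = 0.000571) and KRT17 from 14.9, 16.6, 14.9 and 12.3 to 11.0, 10.9, 10.6 and 9.17 CPM (log2 fold change -0.49, SE 0.088, adjusted p = 0.00582). These 3 genes were low and each had groups that did not overlap. They have near-identical relatives and pseudogenes, so how Salmon shared reads among the copies can move their counts. Of the abundant keratins, KRT7 fell by 0.27 (628 ± 31.3 against 521 ± 5.4 CPM, mean ± SD, n = 4 each, adjusted p = 0.000126), KRT80 by 0.21, KRT19 by 0.23 and KRT8, the most abundant at 4498 CPM, by 0.12 (adjusted p = 0.0102). KRT18 (log2 fold change -0.10, adjusted p = 0.436) and KRT20 (-0.11, adjusted p = 0.746) were not called. Altogether 7 of 10 tested keratins of the list were lower and none higher, with a median of -0.23, and 6 were lower with the offset. No left-out library moved this count by over 1.5 times. The whole keratin family, counted after the data were seen, had 17 tested genes, with the same 7 lower and none higher.

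**Figure D2:**
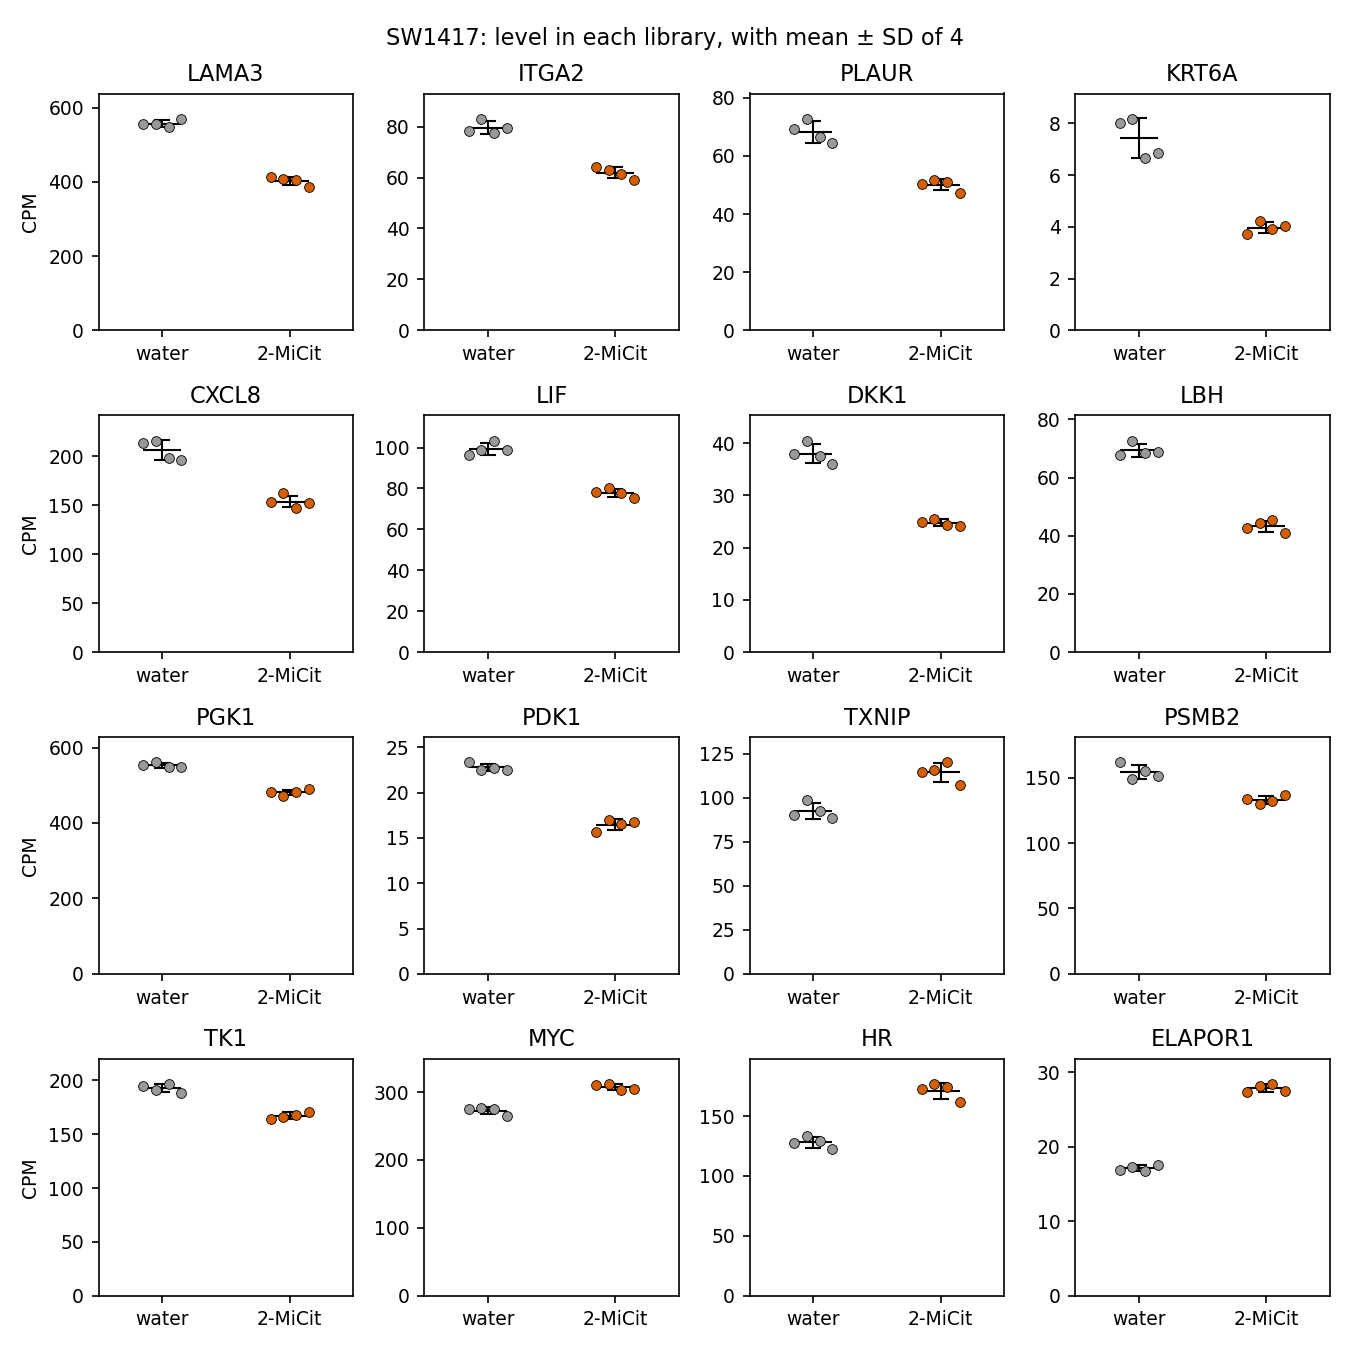
Level in CPM of 16 genes in each SW1417 library, with the 4 water libraries in grey and the 4 2-MiCit libraries in orange; the bar and whiskers are the mean ± SD of 4, and every axis starts at 0. LAMA3, ITGA2, PLAUR, KRT6A, CXCL8, LIF, DKK1, LBH, PGK1, PDK1, PSMB2 and TK1 are lower and TXNIP, MYC, HR and ELAPOR1 higher with 2-MiCit, with no overlap in any panel.

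Several secreted signals were lower, while the early transcription factors that answer growth factor receptors were split and mostly not called. In this pathway a ligand such as TGFA or AREG activates the EGF receptor, RAS and ERK follow, and ERK raises FOSL1, EGR1 and other early genes. CXCL8 encodes interleukin 8, which attracts neutrophils, and its promoter is shown since it is the textbook case in which an AP-1 and an NF-kappaB site lie side by side. It is from RefSeq (GRCh38.p14), chr4:73740319-73740568 on the plus strand, 5′ to 3′, with TGANTCA and GGNNTTTCC (NF-kappaB) in capitals.
CXCL8: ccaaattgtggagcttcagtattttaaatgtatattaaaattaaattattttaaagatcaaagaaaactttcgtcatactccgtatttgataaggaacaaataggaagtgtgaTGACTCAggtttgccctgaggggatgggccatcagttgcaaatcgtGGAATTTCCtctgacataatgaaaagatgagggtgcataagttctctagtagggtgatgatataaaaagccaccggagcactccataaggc
The AP-1 letters begin at -137 and the NF-kappaB letters at -91 from the start. GGNNTTTCC, on either strand, was in 13 of 16 promoters of tested genes of the NF-kappaB list and in 6.26% of all promoters; TGANTCA was in 2 of those 16.

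CXCL8 was at 213, 216, 198 and 196 CPM in control and 153, 162, 147 and 152 CPM with 2-MiCit, all treated values below all control values (log2 fold change -0.42, SE 0.037, adjusted p = 3.54e-05). Of 17 tested NF-kappaB targets and chemokines, 5 were lower and none higher, with a median of -0.14: CXCL8, the chemokine CXCL1 (-0.24), the cytokine IL32 (-0.14), the apoptosis inhibitor BIRC3 (-0.32) and the pathway's own subunit NFKB2 (-0.23). Of these, CXCL8 (adjusted p = 0.00245) and CXCL1 (0.0384) were called with the offset. LIF, a cytokine of the interleukin 6 family, held 96.1, 98.8, 103 and 98.6 CPM in control and 78.5, 80.1, 78.0 and 75.3 CPM with 2-MiCit (log2 fold change -0.35, SE 0.029, adjusted p = 1.03e-05). FOSL1, an AP-1 subunit, went from 79.7, 78.3, 76.6 and 70.5 to 58.8, 62.7, 58.0 and 61.3 CPM (log2 fold change -0.34, SE 0.039, adjusted p = 0.000132). EGR1, a zinc finger factor of the immediate early response, went from 12.6, 12.9, 12.0 and 12.4 to 10.1, 9.16, 8.39 and 9.49 CPM (log2 fold change -0.43, SE 0.063, adjusted p = 0.000959). The groups were separate in LIF, FOSL1 and EGR1. TNFRSF12A, the receptor of the cytokine TWEAK, fell by 0.31 (109 ± 1.4 against 88.4 ± 2.6 CPM, mean ± SD, n = 4 each, adjusted p = 1.47e-05). The ligands AREG (-0.28, adjusted p = 0.000286) and TGFA (-0.17, adjusted p = 0.00961) fell as well; both were chosen after their values were seen, and TGFA was not called with the offset (adjusted p = 0.412).

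Other genes of the same lists rose. MYC, the growth factor-responsive regulator of ribosome production, had 275, 276, 275 and 264 CPM in control and 310.1, 312, 303 and 305 CPM with 2-MiCit (log2 fold change 0.17, SE 0.022, adjusted p = 0.000352). Every treated library was above every control library. Among 22 tested immediate early genes, 3 were higher (MYC, BTG2 at 0.13 and IER5 at 0.10) and 4 lower (FOSL1, EGR1, KLF4 at -0.21 and JUNB at -0.17), with 1 and 2 under the offset. Among 17 tested ERK-responsive genes, 5 were lower, including the receptor EPHA2 (-0.13) and CCND1, cyclin D1 (-0.085), and 2 higher, the inhibitor SPRED1 (0.13) and the factor ETV4 (0.13). With the offset 3 were lower and 0 higher. Of the 28 tested genes of ribosome biogenesis and MYC targets, MYC was the sole member called higher and 2 were lower. The lower count was 0 with the offset, 0 without control replicate 1, 3 or 4 or without 2-MiCit replicate 1, 2 or 3, and 1 without control replicate 2. None of 33 tested ribosomal protein genes was called (1 higher with DESeq2). In that list 4 had treated values all above the controls and none the reverse, against 6.58% and 7.68% of all tested genes. Calls that ended in at least 1 of the 8 fits that left out a library were those of IER5 (7 of 8 fits, up to 0.118 without 2-MiCit replicate 3), KLF4 (7 of 8 fits, up to 0.114 without control replicate 1), JUNB (7 of 8 fits, up to 0.119 without 2-MiCit replicate 2), CCND1 (6 of 8 fits, up to 0.105 without 2-MiCit replicate 3) and ETV4 (3 of 8 fits, up to 0.0795 without 2-MiCit replicate 3).

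DKK1, a secreted inhibitor of Wnt receptors, was among the genes with the largest falls. Its level was 37.97, 40.5, 37.6 and 36.0 CPM in control and 25.02, 25.6, 24.3 and 24.2 CPM with 2-MiCit (log2 fold change -0.62, SE 0.041, adjusted p = 1.1e-06). LBH, a small transcriptional regulator and Wnt target, went from 67.9, 72.7, 68.5 and 68.7 to 42.6, 44.3, 45.3 and 41.0 CPM (log2 fold change -0.68, SE 0.036, adjusted p = 6.72e-08). Both genes were separate between groups by several times the spread within them. WNT7B, a ligand near 1.71 CPM, fell by 0.71 (adjusted p = 0.0279). On the other side, of 21 tested Wnt targets and stem cell genes 6 were higher and 1 lower, with a median of 0.078 and 4 higher under the offset. LGR5, the receptor that marks crypt stem cells, had 174, 181, 174 and 189.6 CPM in control and 205, 220.3, 215 and 209 CPM with 2-MiCit (log2 fold change 0.24, SE 0.031, adjusted p = 0.000357), without overlap. PROM1 rose by 0.16, the crypt receptor EPHB3 by 0.20 and the crypt-base glycoprotein OLFM4, from 3.4 to 4.9 CPM, by 0.52 (adjusted p = 0.0273). TNFRSF19, a Wnt-induced receptor, was the 1 lower member (-0.25, adjusted p = 0.014). No left-out library moved the higher count by over 1.5 times. The calls of single genes that ended when a library was left out were those of WNT7B (5 of 8 fits, up to 0.0878 without control replicate 1), OLFM4 (5 of 8 fits, up to 0.0888 without control replicate 3) and TNFRSF19 (1 of 8 fits, up to 0.0531 without 2-MiCit replicate 3).

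The cytoskeleton was lower in its main building blocks. Of 18 tested actin and tropomyosin genes 10 were lower and none higher (median -0.10, and 6 lower with the offset). Of 10 tested tubulins 7 were lower and none higher (median -0.17, and 5 lower with the offset). Over all 14089 tested genes 570 were lower (4.05%), and 133 with the offset. TMSB4X, thymosin beta 4, which holds actin monomers, had 1477, 1532, 1523 and 1455 CPM in control and 1258, 1266, 1276 and 1231 CPM with 2-MiCit (log2 fold change -0.25, SE 0.022, adjusted p = 1.47e-05). TUBA1B, an alpha-tubulin, went from 1637, 1660, 1657 and 1656 to 1486, 1481, 1443 and 1474 CPM (log2 fold change -0.17, SE 0.019, adjusted p = 9.95e-05). Both genes had separate groups although the falls were 16.0% and 11.0%. ACTB, beta-actin, fell by 0.19 (2537 ± 102.5 against 2229 ± 59.2 CPM, mean ± SD, n = 4 each, adjusted p = 0.00147), the filament cross-linker FLNA by 0.16, and the tropomyosins TPM3 and TPM4 by 0.16 and 0.15. TAGLN2, an actin-binding protein, fell by 0.14. Among tubulins TUBA1C fell by 0.18, TUBA4A by 0.25, TUBB4B by 0.15, TUBB by 0.11, TUBB6 by 0.29 and TUBB3, which is also a neural marker, by 0.30; the call of TUBB3 ended without 2-MiCit replicate 2 (adjusted p = 0.0604). Tubulin and actin genes have close copies and pseudogenes, so single members are uncertain. Some members of families picked out after the data were seen were lower too: 7 of 9 tested subunits of Arp2/3, which branches actin filaments, were lower (1 with the offset, and 4 without control replicate 1, 2 or 3 or without 2-MiCit replicate 2 or 3), as were 4 of 10 S100 calcium-binding proteins and 3 of 11 annexins (3 and 2 with the offset). S100A11 fell by 0.24 (adjusted p = 1.47e-05) and ANXA2, a membrane-binding partner of S100 proteins, by 0.21 (adjusted p = 2.43e-05). S100A4 went the other way, from 115 to 135 CPM (log2 fold change 0.23, SE 0.024, adjusted p = 4.48e-05).

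**Figure D3:**
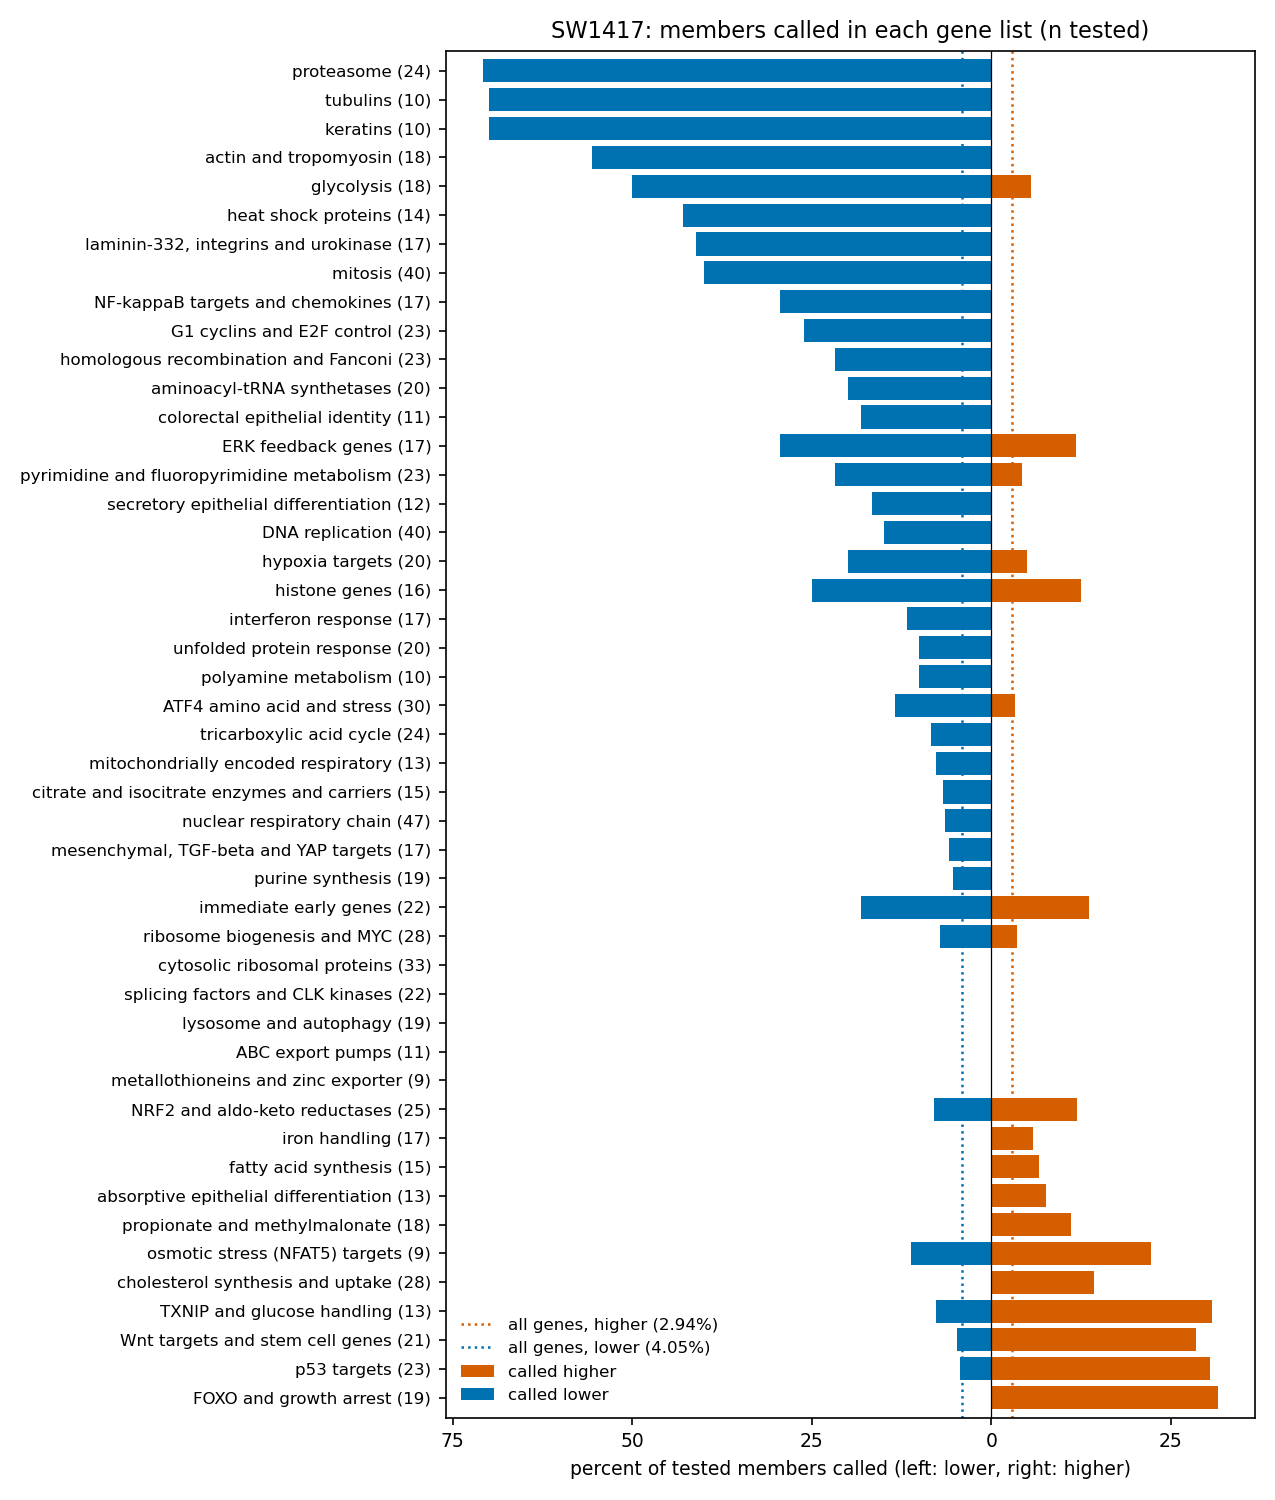
Percent of tested members called higher (orange, to the right) or lower (blue, to the left) with 2-MiCit in each list of at least 5 tested genes other than markers of other cell types; the number tested is in brackets and the dotted lines are the shares over all tested genes, 2.94% higher and 4.05% lower. Proteasome, tubulins and keratins reach 70% or more lower, and the FOXO, p53 and TXNIP lists 30% or more higher.

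The proteasome, the particle that degrades ubiquitin-tagged proteins, was lower in most of its subunits. Of 24 tested subunits 17 were lower (70.8%, against 4.05% of all genes) and none higher, and all 24 had a log2 fold change below 0 (median -0.13). PSMB2, a subunit of the catalytic core, held 162, 149, 155 and 151 CPM in control and 134, 129.7, 132 and 137 CPM with 2-MiCit (log2 fold change -0.21, SE 0.028, adjusted p = 0.000438). PSMD14, the deubiquitinase of the regulatory cap, went from 96.5, 97.2, 95.3 and 100.2 to 86.8, 83.6, 85.4 and 88.2 CPM (log2 fold change -0.18, SE 0.027, adjusted p = 0.00111). In both, the groups were separate, with falls of 13.7% and 11.7%. PSMD1 of the cap fell by 0.20, the ATPase PSMC1 by 0.17 and the core subunit PSMA3 by 0.19. POMP, the assembly chaperone, fell by 0.16 (adjusted p = 0.00855; chosen after its value was seen). With the offset 7 subunits were lower, and the count was 10 without 2-MiCit replicate 3. The antioxidant response letters TGACNNNGC, through which NRF2-family factors can raise proteasome genes, were in 3 of 20 proteasome promoters and in 13.6% of all promoters.

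Glycolysis, the breakdown of glucose to pyruvate, was lower in many of its enzymes. Of 18 tested genes 9 were lower and 1 higher (median -0.14), with 5 lower under the offset, and no left-out library moved the lower count by over 1.5 times. PGK1, phosphoglycerate kinase, had 553, 561, 548 and 549 CPM in control and 483, 473, 483 and 489 CPM with 2-MiCit (log2 fold change -0.20, SE 0.02, adjusted p = 4.76e-05), a fall of 12.8% without overlap. PGAM1, phosphoglycerate mutase, fell by 0.23, TPI1 by 0.14, GAPDH by 0.12 (3331 ± 25.3 against 3062 ± 30.1 CPM, mean ± SD, n = 4 each, adjusted p = 0.00111) and SLC2A1, the glucose transporter GLUT1, by 0.22; the SLC2A1 call was lost with the offset (adjusted p = 0.126). PFKM, the muscle-type phosphofructokinase, was the higher member (0.10, adjusted p = 0.0295). PDK1, a pyruvate dehydrogenase kinase and a target of hypoxia-inducible factor, held 23.3, 22.5, 22.7 and 22.5 CPM in control and 15.6, 17.0, 16.5 and 16.7 CPM with 2-MiCit (log2 fold change -0.47, SE 0.044, adjusted p = 2.85e-05). Its groups were separate, and it was the called hypoxia target with the largest change. Of 20 tested hypoxia targets 4 were lower, among them P4HA1, a collagen prolyl hydroxylase (-0.21), and VEGFA, the angiogenic factor (-0.19), and 1 was higher, the MYC antagonist MXI1 (0.20). With the offset 1 was lower and 0 higher. BHLHE40, a transcriptional repressor also raised by hypoxia and named after its value was seen, fell by 0.38 (adjusted p = 6.25e-05). Calls that ended when a library was left out were those of PFKM (4 of 8 fits, up to 0.0831 without 2-MiCit replicate 1), VEGFA (1 of 8 fits, up to 0.0566 without control replicate 3) and MXI1 (3 of 8 fits, up to 0.0833 without 2-MiCit replicate 3).

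In contrast to the glycolytic enzymes, TXNIP rose. It encodes an arrestin that limits glucose uptake, and glucose metabolites raise it through the factors MondoA (MLXIP) and ChREBP at a pair of E-boxes, the carbohydrate response element. Its promoter from RefSeq (GRCh38.p14), chr1:145996580-145996829 on the minus strand, is shown 5′ to 3′ with that element in capitals.
TXNIP: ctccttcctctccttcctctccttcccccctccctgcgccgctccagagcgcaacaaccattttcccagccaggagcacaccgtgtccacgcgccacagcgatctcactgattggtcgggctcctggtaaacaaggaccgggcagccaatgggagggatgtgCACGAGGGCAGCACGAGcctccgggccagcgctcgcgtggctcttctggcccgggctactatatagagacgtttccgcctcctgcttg
The element begins at -88 from the start. Its letters, on either strand, were in 0.0732% of 27305 promoters and, of 11 promoters of tested genes of the TXNIP and glucose list, in that of TXNIP alone. TXNIP had 90.4, 98.8, 92.2 and 88.3 CPM in control and 115, 116, 120.0 and 107 CPM with 2-MiCit (log2 fold change 0.31, SE 0.04, adjusted p = 0.000734), all treated libraries above all controls. Its relative ARRDC4 rose by 0.22 (adjusted p = 0.0124), MLXIP itself by 0.14 (adjusted p = 0.00349) and PDK2, another pyruvate dehydrogenase kinase, by 0.38 (adjusted p = 0.0318). ARRDC3, a further arrestin, fell by 0.30 (48.5 ± 1.2 against 39.4 ± 1.2 CPM, mean ± SD, n = 4 each, adjusted p = 8.09e-05). Of 13 tested genes 4 were higher and 1 lower, with 1 higher under the offset, TXNIP itself (adjusted p = 0.00775). The calls that ended when a library was left out were those of ARRDC4 (1 of 8 fits, up to 0.0535 without 2-MiCit replicate 3) and PDK2 (5 of 8 fits, up to 0.108 without 2-MiCit replicate 3), and the higher count was 2 without 2-MiCit replicate 3.

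Genes of cell division were lower by small amounts. Cyclin B, the mitotic kinases and the spindle genes are switched on together late in the cell cycle, by complexes that bind the CHR element (TTTGAA) and CCAAT boxes, whereas the genes of DNA replication are switched on earlier by E2F. CDC20 activates the anaphase-promoting complex, and its promoter is shown because it holds both late elements. It is from RefSeq (GRCh38.p14), chr1:43358731-43358980 on the plus strand, 5′ to 3′, with TTTGAA and CCAAT on either strand in capitals.
CDC20: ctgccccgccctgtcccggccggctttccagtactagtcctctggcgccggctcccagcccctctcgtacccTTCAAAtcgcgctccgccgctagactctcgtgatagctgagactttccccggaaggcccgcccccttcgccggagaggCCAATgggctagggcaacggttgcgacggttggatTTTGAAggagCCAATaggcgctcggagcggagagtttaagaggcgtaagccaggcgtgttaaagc
TTTGAA begins at -178 and -65 and CCAAT at -100 and -55 from the start. TTTGAA was in 25 of 34 promoters of tested mitosis genes and in 15.4% of all promoters, and CCAAT in 27 of 34 and in 35.7%; among the 14 of these genes called lower, 8 held TTTGAA and 11 held CCAAT.

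Of 40 tested mitosis genes 16 were lower (40%) and none higher, and the median was -0.087. CDC20 had 168, 166, 169 and 156 CPM in control and 155, 152, 146 and 152 CPM with 2-MiCit (log2 fold change -0.12, SE 0.028, adjusted p = 0.0172); the groups did not overlap, but they came within 2 CPM of each other. The spindle motors CENPE and KIF23 fell by 0.16 and 0.13, the kinase AURKB by 0.15, the spindle protein DLGAP5 by 0.13 and cyclin B1 (CCNB1) by 0.11. With the offset 1 mitosis gene was called, and the count was 10 without control replicate 1, 9 without control replicate 2, 8 without control replicate 3, 9 without 2-MiCit replicate 2 and 6 without 2-MiCit replicate 3. Of 40 tested DNA replication genes 6 were lower and none higher (median -0.074; 1 with the offset). CDC6, which loads the replicative helicase, went from 112, 110.3, 117 and 119 to 97.3, 97.4, 102 and 104 CPM (log2 fold change -0.19, SE 0.031, adjusted p = 0.00207). The checkpoint mediator CLSPN fell by 0.24, the helicase partners CDC45 and GINS1 by 0.15 and 0.15, and the clamp loader subunit RFC5 by 0.12. The replication count was 3 without control replicate 3, 3 without 2-MiCit replicate 1, 3 without 2-MiCit replicate 2, 3 without 2-MiCit replicate 3 and 11 without 2-MiCit replicate 4. Of 23 tested genes of the start of the cycle 6 were lower and none higher (1 with the offset), among them the factor MYBL2 (-0.17), CCND1, CCND3 (-0.18) and the inhibitors CDKN1A and CDKN2B (-0.54), which act against the cyclins. Without control replicate 1 or 3, or without 2-MiCit replicate 1 or 2, this count was 3. Of 23 tested genes of homologous recombination and the Fanconi pathway 5 were lower and none higher: FANCI (-0.12), RAD54B (-0.16), BARD1 (-0.18), BRCA1 (-0.13) and BLM (-0.12). None of these was called with the offset, and the count was 3 without control replicate 1, 2 without control replicate 3, 1 without control replicate 4, 2 without 2-MiCit replicate 1, 1 without 2-MiCit replicate 2 and 1 without 2-MiCit replicate 3. Single calls that ended when a library was left out were those of CDC20 (4 of 8 fits, up to 0.08 without 2-MiCit replicate 3), KIF23 (1 of 8 fits, up to 0.054 without 2-MiCit replicate 3), GINS1 (7 of 8 fits, up to 0.0979 without control replicate 3), RFC5 (6 of 8 fits, up to 0.136 without 2-MiCit replicate 3), CCND3 (5 of 8 fits, up to 0.0805 without control replicate 1), RAD54B (6 of 8 fits, up to 0.0994 without control replicate 3), BARD1 (5 of 8 fits, up to 0.113 without control replicate 3), BRCA1 (5 of 8 fits, up to 0.11 without 2-MiCit replicate 2) and BLM (6 of 8 fits, up to 0.0998 without 2-MiCit replicate 1).

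Nucleotide synthesis is the target of fluoropyrimidine drugs, and its genes changed in part. TK1, thymidine kinase of dividing cells, had 195, 191, 197 and 188 CPM in control and 164, 166, 168 and 171 CPM with 2-MiCit (log2 fold change -0.20, SE 0.024, adjusted p = 0.00014), without overlap. The ribonucleotide reductase subunits RRM2 and RRM1 fell by 0.21 and 0.14 and CTP synthase (CTPS1) by 0.12. RRM2B, the p53-induced subunit of the same reductase, rose by 0.18 (adjusted p = 0.00974). TYMS, thymidylate synthase and the enzyme that fluorouracil blocks, was at 147 and 139 CPM and was not called (log2 fold change -0.08, SE 0.03, adjusted p = 0.13). The phosphorylases that handle fluorouracil were low and were not called: UPP1 had a log2 fold change of -0.27 (adjusted p = 0.307) and TYMP one of 0.24 (adjusted p = 0.578). DPYD, which degrades the drug, did not pass the filter on low counts. Of 23 tested genes 5 were lower and 1 higher (2 and 0 with the offset), and the lower count was 3 without control replicate 3 and 3 without 2-MiCit replicate 2. None of 11 tested ABC export pumps was called (0 with DESeq2; 1 lower without control replicate 2 and 1 higher without 2-MiCit replicate 4), among them ABCC2 (log2 fold change 0.35, adjusted p = 0.482) and ABCC3 (0.06, adjusted p = 0.611). A left-out library ended the call of CTPS1 (7 of 8 fits, up to 0.107 without 2-MiCit replicate 2).

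Some targets of p53 were higher and 1 was lower. Of 23 tested targets 7 were higher and 1 lower, with a median of 0.081. The lower one was CDKN1A, the cell cycle inhibitor p21 and the best known target, with 80.9, 78.7, 79.4 and 76.4 CPM in control and 70.1, 68.6, 71.9 and 71.96 CPM with 2-MiCit (log2 fold change -0.16, SE 0.028, adjusted p = 0.0038), every treated library below every control. The higher ones included the pro-apoptotic BBC3 (25.8 ± 1.4 against 32.0 ± 0.92 CPM, mean ± SD, n = 4 each; log2 fold change 0.31, SE 0.044, adjusted p = 0.000629) and BAX (0.11, adjusted p = 0.0134), ZMAT3, an RNA-binding tumour suppressor (0.23, adjusted p = 0.0265), and BTG2, an antiproliferative gene (0.13, adjusted p = 0.0104). MDM2, which degrades p53 and is itself a target, was at 93.2 and 95.5 CPM and was not called (log2 fold change 0.035, adjusted p = 0.574). With the offset 2 targets were higher and 0 lower. The higher count was 4 without control replicate 1, 4 without control replicate 3, 4 without 2-MiCit replicate 2 and 4 without 2-MiCit replicate 3, and the call of ZMAT3 ended in 4 of the 8 fits (adjusted p up to 0.0959, without 2-MiCit replicate 2).

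FOXO targets and growth arrest genes, which FOXO factors raise when insulin and growth factor signalling is low, were higher in part. Of 19 tested genes 6 were higher and none lower, with a median of 0.19, against 2.94% of all genes higher. This list too was written with results on other lines of the series known, so its count is no independent support for a FOXO response. KLHL24, an adaptor of a ubiquitin ligase that targets keratin, had 9.44, 8.96, 9.16 and 7.62 CPM in control and 12.7, 13.6, 12.9 and 13.0 CPM with 2-MiCit (log2 fold change 0.57, SE 0.068, adjusted p = 0.000166), without overlap. MXD4, a MYC antagonist, rose by 0.40 (adjusted p = 0.000324), YPEL3, a gene of senescence, by 0.37 (adjusted p = 0.0146) and NR1D1, the circadian repressor REV-ERB alpha, by 0.23 (adjusted p = 0.0172); TXNIP is the member described above. The offset left 1 of these calls, that of TXNIP, with KLHL24 at an adjusted p of 0.0559. The count was 3 without control replicate 1, 3 without 2-MiCit replicate 2 and 3 without 2-MiCit replicate 3. The calls of YPEL3 (3 of 8 fits, up to 0.0591 without 2-MiCit replicate 3) and NR1D1 (3 of 8 fits, up to 0.0634 without 2-MiCit replicate 2) ended when a library was left out.

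**Figure D4:**
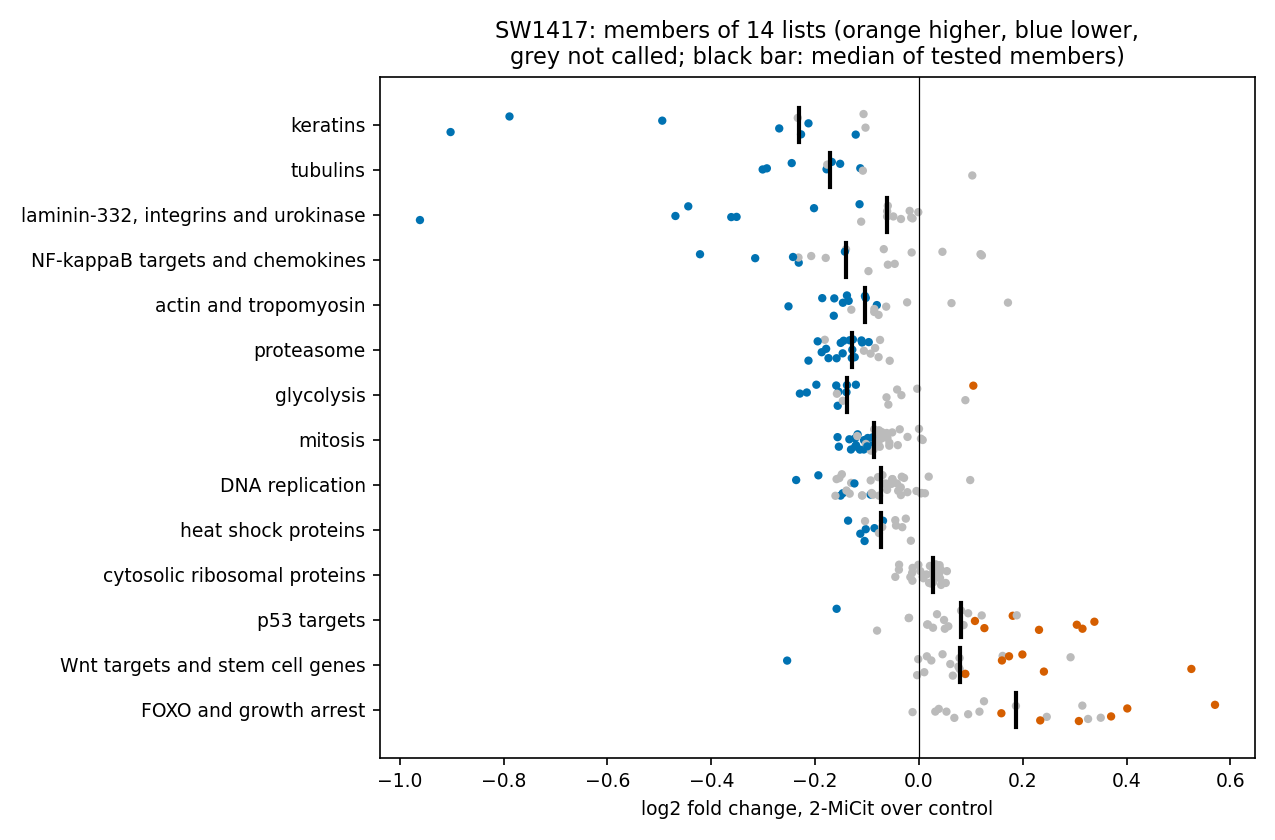
Log2 fold change of 2-MiCit over control (horizontal axis) of each tested member of 14 gene lists, with orange points called higher, blue called lower and grey not called; the black bar is the list's median. The medians run from -0.23 (keratins) to 0.19 (FOXO and growth arrest), and the ribosomal proteins lie between -0.045 and 0.054.

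The genes with the largest rises came from several pathways. ELAPOR1, an endosomal protein of secretory epithelium, had 16.8, 17.3, 16.7 and 17.5 CPM in control and 27.3, 28.2, 28.4 and 27.4 CPM with 2-MiCit, the largest rise of a called gene above 5 CPM (log2 fold change 0.70, SE 0.041, adjusted p = 2.3e-07). HR, a histone demethylase and nuclear receptor corepressor, went from 127, 134, 129.5 and 123 to 172, 177, 174 and 162 CPM (log2 fold change 0.42, SE 0.032, adjusted p = 4.94e-06). Both had separate groups and were called with the offset (adjusted p = 0.0263 and 0.0038). CCDC190 rose by 0.36 (adjusted p = 5.54e-06) and MGAT5, a glycosyltransferase of branched N-glycans, by 0.25 (adjusted p = 1.47e-05). Between 0.44 and 0.54 lay the rises of SLC3A1, a subunit of the cystine transporter, BMX, a tyrosine kinase, WNK4, a kinase of ion transport, NOX1, the NADPH oxidase of colon epithelium, ZNF490, DLG5, a scaffold of cell polarity, METTL7A, KIF12 and TMEM229B. Of these, ZNF490 and DLG5 lost the call in 6 and 7 of the 8 fits without a library (adjusted p up to 0.0765 and 0.129, both without 2-MiCit replicate 3). With the offset SLC3A1, BMX, NOX1, ZNF490 and TMEM229B were not called (adjusted p = 0.0917, 0.115, 0.0559, 0.716 and 0.171). WNK4, DLG5, METTL7A and KIF12 were still called with it. The aldo-keto reductases AKR1C1, AKR1C2 and AKR1C3, which reduce steroids and reactive carbonyls, rose together. AKR1C1 had 5.14, 5.09, 6.28 and 4.76 CPM in control and 7.15, 7.74, 7.71 and 7.13 CPM with 2-MiCit (log2 fold change 0.48, SE 0.092, adjusted p = 0.0057), AKR1C2 rose by 0.50 (adjusted p = 0.0107) and AKR1C3, near 1 CPM, by 0.62 (adjusted p = 0.0491), a call that ended in all 8 fits without a library (adjusted p up to 0.128, without 2-MiCit replicate 1). With the offset AKR1C1 was not called (adjusted p = 0.103). The sequences of the 3 genes are close, so reads may be shared among them. They were the 3 higher genes of 25 tested in the NRF2 list, in which the thioredoxin TXN (-0.14) and the peroxiredoxin PRDX1 (-0.09) were lower; the call of PRDX1 (2 of 8 fits, up to 0.0734 without 2-MiCit replicate 3) did not hold when a library was left out, and with the offset 1 was higher and 0 lower. The flavin monooxygenase FMO5 rose as well (0.65, adjusted p = 0.00349) and was picked out after its value was seen.

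Among the largest falls that belong to none of the groups above were SDCBP2, a scaffold of membrane proteins (log2 fold change -0.74, SE 0.092, adjusted p = 0.000264), GBP6, an interferon-inducible GTPase (-0.58), C4BPB, a chain of a complement inhibitor (-0.58), the histone gene H2BC9 (-0.56), SPOCD1 (-0.56) and RASD1, a RAS-like GTPase (-0.54). Each was at 5 to 11 CPM in control and had no overlap between groups. H2BC9 is a replication-dependent histone gene, whose transcript has no poly(A) tail as a rule, while the libraries were made with a kit for mRNA.

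Of the stress pathways, the heat shock genes were lower in part, and genes of the ATF4 program and the unfolded protein response were mostly not called. The ATF4 program, which cells switch on when amino acids are short, had 4 lower and 1 higher of 30 tested genes (median -0.053). ASNS, asparagine synthetase, had 62.4, 60.8, 60.9 and 63.2 CPM in control and 52.4, 53.4, 54.7 and 57.9 CPM with 2-MiCit (log2 fold change -0.18, SE 0.033, adjusted p = 0.00502), separate but lost with the offset (adjusted p = 0.115). The glutamine transporter SLC1A5 (-0.11), the glutathione-degrading CHAC1 (-0.43) and the mTOR inhibitor DDIT4 (-0.20) were lower and the amino acid transporter SLC38A2 higher (0.14). With the offset none of the list was called, and the lower count was 2 without control replicate 1 and 2 without 2-MiCit replicate 3. Of 14 tested heat shock genes 6 were lower (42.9%, against 4.05% of all genes) and none higher. All 14 had a log2 fold change below 0, with a median of -0.074. Among the lower genes were HSPE1 (-0.14), HSP90AA1 (-0.10), DNAJA1 (-0.11), HSPA8 (-0.069) and DNAJB1 (-0.10). None of the list was called with the offset. The heat shock count was 3 without control replicate 1, control replicate 3 or 2-MiCit replicate 1, and 2 without 2-MiCit replicate 2 or 3. Of 20 tested genes of the unfolded protein response 2 were lower, EDEM1 (-0.13) and HSP90B1 (-0.076), and none higher; neither was called with the offset. Of 9 tested targets of NFAT5, the factor that answers osmotic stress, the taurine transporter SLC6A6 (0.21, adjusted p = 8.5e-05) and SLC38A2 were higher and the kinase SGK1 lower (-0.40, adjusted p = 0.0013). With the offset SLC6A6 and SGK1 were called, and the higher count was 1 without control replicate 1, 1 without control replicate 3, 1 without 2-MiCit replicate 2 and 1 without 2-MiCit replicate 3. Single calls that ended when a library was left out were those of CHAC1 (4 of 8 fits, up to 0.0791 without 2-MiCit replicate 3), DDIT4 (4 of 8 fits, up to 0.0864 without 2-MiCit replicate 3), SLC38A2 (4 of 8 fits, up to 0.0619 without 2-MiCit replicate 3), DNAJA1 (3 of 8 fits, up to 0.0831 without 2-MiCit replicate 3), DNAJB1 (6 of 8 fits, up to 0.142 without 2-MiCit replicate 2), HSPA8 (6 of 8 fits, up to 0.137 without 2-MiCit replicate 3), EDEM1 (7 of 8 fits, up to 0.103 without 2-MiCit replicate 2) and HSP90B1 (6 of 8 fits, up to 0.129 without 2-MiCit replicate 2).

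The enzymes nearest to the metabolite in structure or pathway were barely changed. ACO1 (log2 fold change 0.082, adjusted p = 0.42), the cytosolic aconitase, IDH1 (-0.0025, adjusted p = 0.971), ACLY, which splits citrate (-0.021, adjusted p = 0.665), the mitochondrial citrate carrier SLC25A1 (-0.0045, adjusted p = 0.962) and the plasma membrane citrate carrier SLC13A5, near 0.4 CPM (0.02, adjusted p = 0.982), were not called. Of 15 tested genes of this kind IDH2, the mitochondrial isocitrate dehydrogenase, was lower (-0.10, adjusted p = 0.0334) and none higher. The propionate enzymes PCCA (0.04, adjusted p = 0.668), PCCB (0.029, adjusted p = 0.592) and MMUT (0.061, adjusted p = 0.399) were not called. Of 18 tested genes of that pathway ACSS1, a mitochondrial acyl-CoA synthetase (0.14), and BCKDHA, of branched-chain amino acid breakdown (0.13), were higher and none lower; neither was called with the offset (adjusted p = 0.138 and 0.198). Iron and aconitase are linked, since ACO1 without its iron-sulfur cluster binds the mRNAs of iron genes. TFRC, the transferrin receptor (-0.039, adjusted p = 0.361), and FTH1, the ferritin heavy chain (0.016, adjusted p = 0.743), were not called, and 1 of 17 tested iron genes was higher, the ferritin receptor NCOA4 (0.11). Of 28 tested genes of cholesterol synthesis and uptake 4 were higher and none lower, among them LSS (0.20), SREBF2 (0.10) and CYP51A1 (0.094). FADS1 (0.14) was the 1 of 15 fatty acid genes called. With the offset none of IDH2, NCOA4, FADS1 or the cholesterol genes was called, and without 1 library 1 to 4 cholesterol genes were (1 without control replicate 2, 3 or 4 or 2-MiCit replicate 1 or 3, and 2 without 2-MiCit replicate 2). Calls that ended when a library was left out were those of IDH2 (7 of 8 fits, up to 0.119 without control replicate 3), ACSS1 (6 of 8 fits, up to 0.124 without 2-MiCit replicate 3), BCKDHA (7 of 8 fits, up to 0.134 without 2-MiCit replicate 3), NCOA4 (5 of 8 fits, up to 0.131 without 2-MiCit replicate 3), SREBF2 (7 of 8 fits, up to 0.14 without 2-MiCit replicate 1) and CYP51A1 (7 of 8 fits, up to 0.146 without control replicate 3). No gene was called among 19 genes of lysosome and autophagy and 9 metallothionein and zinc exporter genes, and DESeq2 called none of them either. None of 22 splicing factors was called, but 5 were lower with DESeq2, 3 with the replicate number as a block, 3 with a filter of 5 CPM, 2 without control replicate 4 and 6 without 2-MiCit replicate 4. Of 47 tested nuclear respiratory chain genes 3 were lower and none higher, 0 with the offset, and the lower count was 1 without control replicate 2, 1 without control replicate 3, 1 without 2-MiCit replicate 1, 1 without 2-MiCit replicate 2 and 1 without 2-MiCit replicate 3.

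In the fit over 24 libraries, where the spread is shared with HT29 and SKCO1, fewer members of the lists below were called in SW1417, and more genes passed the filter, so that some lists have more tested members. The lower counts were then 4 of 40 for mitosis, 1 of 40 for DNA replication, 10 of 24 for the proteasome, 4 of 18 for glycolysis, 3 of 12 for the keratins, 4 of 18 for laminin-332, integrins and urokinase, 3 of 18 for the NF-kappaB list and 0 for heat shock and for homologous recombination. Of 18 actin and tropomyosin genes 8 were lower, and of 11 tubulins 5. The higher counts were 4 for p53 targets, 4 for FOXO targets and 3 for Wnt targets.

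Whether the response of SW1417 differed from that of the other lines in the same count table was tested by the treatment-by-line interaction in 1 edgeR fit over the 24 libraries. HT29 and SKCO1 are established human colorectal cancer lines that had received the same dose, with 4 treated and 4 water libraries of their own, so the comparisons share no control sample. The effect differed between SW1417 and HT29 in 553 of 16090 genes (3.44%) and between SW1417 and SKCO1 in 165 (1.03%). Of the 984 genes called in SW1417, 132 differed from HT29, and in 88 of those the fitted change in HT29 had the other sign; 54 differed from SKCO1, 40 of them with the other sign. With the offset the interaction called 189 and 39 genes, and without 1 SW1417 library 401 to 469 and 86 to 107. The count against SKCO1 was over 1.5 times below 165 whichever SW1417 library was left out. Below, the value of SW1417 is from its own fit, those of HT29 and SKCO1 and every difference are from the fit over 24 libraries, and the adjusted p is that of the difference.

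TXNIP and ARRDC4 rose less in SW1417 than in HT29. TXNIP rose by 0.31 in SW1417 and by 1.30 in HT29, with 0.23 in SKCO1 (not called, adjusted p = 0.0654), and the difference from HT29 was -0.99 (adjusted p = 3.98e-05). ARRDC4 rose by 0.22 in SW1417 and 1.23 in HT29 (difference -1.01, adjusted p = 1.23e-06). Some genes went opposite ways: GALNT5, a mucin glycosyltransferase, had -0.33 in SW1417 and 0.66 in HT29 (adjusted p = 9.51e-06), ITGA2 -0.36 and 0.33 (adjusted p = 3.11e-05), and MAB21L4 -0.24 and 0.44 (adjusted p = 1.23e-06). LAMA3 fell more in SW1417, by 0.47 against a log2 fold change of -0.11 in HT29 (adjusted p = 0.00223); its difference from SKCO1, where it fell by 0.22, did not pass the test (adjusted p = 0.0612). FOSL1 had 0.047 in HT29 (adjusted p of the difference = 0.028) and -0.36 in SKCO1 (adjusted p = 0.959). CDKN1A fell in SW1417 and had 0.22 in HT29 (adjusted p = 0.0271). CDC20 and TUBB fell less in SW1417, CDC20 with -0.12 against -0.46 in HT29 (adjusted p = 0.000442) and TUBB with -0.11 against -0.49 (adjusted p = 1.76e-05). Of these, LAMA3 (adjusted p = 0.371), FOSL1 (adjusted p = 0.0833) and CDKN1A (adjusted p = 0.0542) no longer differed from HT29 by the test with the offset, and FOSL1 and CDKN1A each in 2 of the 8 fits that left out a SW1417 library (adjusted p up to 0.0561 without 2-MiCit replicate 3 and 0.0552 without 2-MiCit replicate 2).

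Of the 54 called genes that differed from SKCO1, 40 had the other sign there, 9 changed more in SW1417 and 5 changed less. Among those with the larger change in SW1417, LBH had -0.68 in SW1417 and -0.07 in SKCO1 (difference -0.61, adjusted p = 0.000179), PDK1 -0.47 and -0.045 (adjusted p = 0.0104) and KRT6A -0.90 and -0.25 (adjusted p = 0.00703). BHLHE40 had -0.38 in SW1417 and 0.056, the other sign, in SKCO1 (adjusted p = 0.00488). PDK1 (-0.057 in HT29, adjusted p = 0.00478) and BHLHE40 (0.088 in HT29, adjusted p = 0.00195) also differed from HT29, so that both fell in SW1417 and differed from each of the other lines. LIF, WNT7B, MAB21L4, GALNT5, PRR15L, ACAA2 and NOB1 likewise differed from both lines. The other sign was also found for PRR15L (-0.15 in SW1417 and 0.50 in SKCO1, adjusted p = 9.82e-05) and ABHD2 (-0.11 and 0.24, adjusted p = 9.82e-05). It was found as well for DNAJC15, a mitochondrial chaperone partner (-0.13 and 0.26, adjusted p = 0.00211), and ACAA2, of fatty acid oxidation (-0.10 and 0.14, adjusted p = 0.00211). In PRR15L, ABHD2, DNAJC15 and ACAA2 the change was larger in SKCO1. NOB1, of ribosome assembly, had 0.13 in SW1417 and -0.12 in SKCO1 (adjusted p = 0.00211). MYC rose by 0.17 in SW1417 and fell by 0.11 in SKCO1 (adjusted p = 0.00272), and HR and WNK4 rose by 0.42 and 0.51 in SW1417 and had 0.088 and -0.11 in SKCO1 (adjusted p = 0.0159 and 0.0161). With the offset PDK1 (adjusted p = 0.136), BHLHE40 (adjusted p = 0.0596), ABHD2 (adjusted p = 0.0682), DNAJC15 (adjusted p = 0.258), HR (adjusted p = 0.292) and WNK4 (adjusted p = 0.111) no longer differed from SKCO1 by the test, while LBH, KRT6A, PRR15L, ACAA2, NOB1 and MYC did. The SW1417 calls of ACAA2 and DNAJC15 ended in 5 and 1 of the 8 fits that left out a library, with adjusted p of up to 0.0755 and 0.0553.

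**Figure D5:**
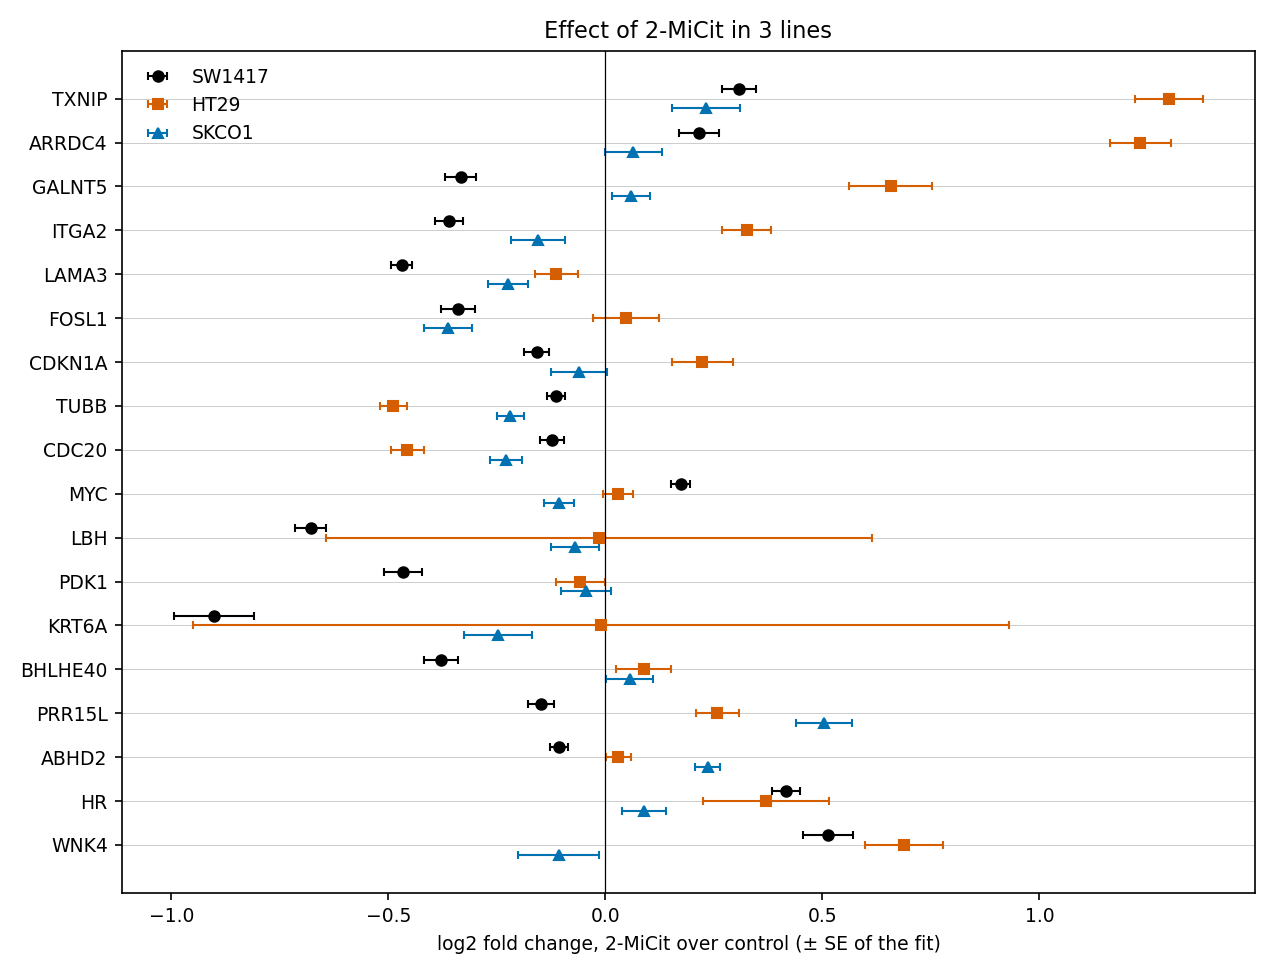
Log2 fold change of 2-MiCit over water with its SE (horizontal axis) for 18 genes in SW1417 (black circles), HT29 (orange squares) and SKCO1 (blue triangles). Values and SEs of SW1417 are from its own fit, and those of HT29 and SKCO1 from the fit over 24 libraries. The median SE of the SW1417 effect over all tested genes was 0.049 in its own fit and 0.063 in that over 24 libraries. TXNIP lies at 0.31 in SW1417 and 1.30 in HT29, LBH at -0.68 in SW1417 and -0.07 in SKCO1.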

How the data were processed

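Whole-number counts per gene were deposited for 24 libraries of 3 lines in 1 table, with a second table of the authors' normalised values (signal). The labels' protocols name total RNA and Illumina Stranded mRNA Prep, and the submitters' processing notes name bcl2fastq 2.20.0, Trimmomatic 0.39, Salmon 1.5.0, DESeq2 and GRCh38.p13. How Salmon's estimates were summed to whole counts, and the annotation release, are not given in the sources used here. In these tables the ratio of the deposited count to the deposited normalised signal was not constant over the genes of a library, and it served as the gene-specific offset.

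Only the 8 SW1417 libraries entered the comparison, grouped by their labels. Genes with few counts were removed with filterByExpr (minimum count 10, total 15), libraries were scaled by TMM, and edgeR 4.0.16 (R 4.3.3) gave two-sided quasi-likelihood tests with robust dispersion and Benjamini-Hochberg adjustment over 14089 genes. Levels are CPM on TMM-scaled library sizes. The 32.3 to 45.4 M counts per library set the precision, and 3.08% to 3.14% of them fell on identifiers outside GENCODE 29, which stayed in the fit; 15285 of 16454 identifiers had a symbol. Libraries of a group differed by more than sampling noise (chi-square per degree of freedom 4.45 to 9.05), and each was counted as 1 sample; this does not show that they came from separate cultures. Alternatives were DESeq2 1.42.0, other scaling and filters, the offset, the replicate block, a length trend, 1 fit over 24 libraries and each library left out. Libraries of the other 4 lines were not used here.

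The lists and genes were chosen with earlier results of these data known. Named genes were the 14 called genes with the largest rises and the 14 with the largest falls at 5 CPM or more without overlap, the 6 with the smallest p in each direction, up to 5 per list in its main direction and 2 in the other, a set of drug and metabolite genes, and the 6 with the smallest interaction p per line. Chosen after their values were seen were LAMB3, PLAUR, ITGB1, PLAU, SERPINB2, KRT18, KRT20, CDC20, IER5, AREG, TGFA, WNT7B, BHLHE40, ACTB, ANXA2, POMP, FMO5, the laminin-332 list, the families and the AP-1, NF-kappaB, carbohydrate response, FOXO, glycolysis, tubulin and proteasome promoter searches. Some genes are not reported here.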

Additional observations from a re-analysis of the deposited data

Results flagged for a closer look

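In LBH the control library numbered 2, at 72.7 CPM, lay far above the other 3 controls for the width of the group, and in MYC the control library numbered 4, at 264 CPM, lay far below the other 3. Chance marks about 1 in 20 groups of this size. Both libraries stayed on their own side of the 2-MiCit libraries.

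The effect of 2-MiCit on 39 of the named genes differed between SW1417 and HT29 by the interaction term of edgeR's quasi-likelihood test (values are the log2 effect in SW1417 minus that in HT29). Genes lower in SW1417 whose fitted change in HT29 was above 0 were ITGA2 (-0.68), FOSL1 (-0.38), CDC6 (-0.30), CDKN1A (-0.38), BHLHE40 (-0.46), CLSPN (-0.39), CCND3 (-0.34), RRM2 (-0.31), H2BC9 (-1.19), RASD1 (-0.74), SLC1A5 (-0.14), IDH2 (-0.23), MAB21L4 (-0.68), GALNT5 (-0.98), PRR15L (-0.40) and ACAA2 (-0.14). Genes higher in SW1417 with a fitted change in HT29 below 0 were ZMAT3 (0.29), BCKDHA (0.20) and NOB1 (0.17). A change of the same sign was larger in SW1417 for LAMA3 (-0.35), LIF (-0.28), PDK1 (-0.40), KLHL24 (0.33), KRT19 (-0.19), WNT7B (-0.62) and PGAM1 (-0.22). It was smaller in SW1417 for TUBA1B (0.25), TXNIP (-0.99), CDC20 (0.34), BTG2 (-0.40), FLNA (0.22), TUBA1C (0.18), TUBB (0.38), S100A4 (-0.30), ARRDC4 (-1.01), DLGAP5 (0.19), CCNB1 (0.25) and ACSS1 (-0.31). The difference was also past the threshold for PCCB (0.18), which was not called in SW1417 itself. Without 1 SW1417 library, 25 of the 39 kept the difference in all 8 fits; those that lost it (fits, highest adjusted p) were FOSL1 (2 of 8 fits, up to 0.0561), TUBA1B (7 of 8 fits, up to 0.0775), KLHL24 (6 of 8 fits, up to 0.0815), CDC6 (4 of 8 fits, up to 0.0671), CDKN1A (2 of 8 fits, up to 0.0552), KRT19 (6 of 8 fits, up to 0.0862), WNT7B (5 of 8 fits, up to 0.0968), DLGAP5 (3 of 8 fits, up to 0.0841), ZMAT3 (6 of 8 fits, up to 0.127), SLC1A5 (7 of 8 fits, up to 0.0913), PCCB (1 of 8 fits, up to 0.0522), IDH2 (7 of 8 fits, up to 0.0958), BCKDHA (6 of 8 fits, up to 0.132) and ACAA2 (6 of 8 fits, up to 0.0927). With the gene-specific offset 18 kept it, and the genes just listed were not among these. It was also lost with the offset for LAMA3 (adjusted p = 0.371), LIF (adjusted p = 0.694), FLNA (adjusted p = 0.0869) and CLSPN (adjusted p = 0.124). The same held for RRM2 (adjusted p = 0.11), ACSS1 (adjusted p = 0.0644) and NOB1 (adjusted p = 0.136).

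Against SKCO1, 20 of the named genes differed (log2 effect in SW1417 minus that in SKCO1). Lower in SW1417 with a fitted change above 0 in SKCO1 were WNT7B (-0.98), BHLHE40 (-0.43), MAB21L4 (-0.35), GALNT5 (-0.39), ABHD2 (-0.34), PRR15L (-0.65), DNAJC15 (-0.38) and ACAA2 (-0.24). Higher in SW1417 and below 0 in SKCO1 were MYC (0.29), PFKM (0.24), BAX (0.22), WNK4 (0.63) and NOB1 (0.26). The change had the same sign and was larger in SW1417 for KRT6A (-0.65), LIF (-0.21), LBH (-0.61), PDK1 (-0.42) and HR (0.33), and smaller for KIF12 (-0.67). The difference was past the threshold for IDH1 (-0.16) with no call in SW1417. In the fits without 1 SW1417 library, 16 of the 20 kept it throughout; the others were PFKM (8 of 8 fits, up to 0.123), BAX (6 of 8 fits, up to 0.0794), KIF12 (5 of 8 fits, up to 0.0864) and IDH1 (6 of 8 fits, up to 0.087). With the offset 7 kept it: KRT6A, LBH, MYC, WNT7B, PRR15L, ACAA2 and NOB1. LIF did not (adjusted p = 0.702).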

How the results depend on the processing

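Of the 167 called genes of the 186 named, none changed direction in an alternative that gave it a value (158 had one with the filter of 5 CPM, 164 with DESeq2 and 167 in each other alternative), while the counts past the threshold moved. With the gene-specific offset 77 genes were higher and 133 lower, 74 of the 167 named genes kept their call and 5 lists (17 otherwise, of 51) had at least 5 members called one way; the median SE was then 0.067 against 0.049. In 1 fit over 24 libraries the numbers were 211, 227, 88 and 3. Leaving out 1 library gave 187 to 460 higher, 303 to 670 lower, 122 to 155 named genes and 8 to 21 lists; these fits have fewer libraries and were not equally affected by each. The labels do not say whether same-numbered libraries were paired. Deviations from the group means of same-numbered libraries correlated at -0.13 to 0.022, and 1 of 8 libraries correlated best with its own number. Weak correlations over all genes cannot settle whether the libraries were paired. With the replicate number as a block 474 genes were higher and 658 lower, and the median SE was 0.046. With the block and the offset together 28 and 50 were called, with 40 named genes and 0 lists. The interaction with HT29 (553 genes) gave 189 with the offset, 1008 with the block, 856 with DESeq2 and 401 to 469 without 1 SW1417 library, and that with SKCO1 (165) gave 39, 366, 386 and 86 to 107; HT29 and SKCO1 libraries were not left out. Scaling by DESeq2-style size factors (409 higher and 558 lower), no filter on low counts (372 and 502), a filter of 5 CPM in 4 libraries (515 and 619), a removed length trend (403 and 570) and DESeq2 (428 and 668) stayed within 1.5 times. The cause of these moves was not tested. Depth limits genes near 1 CPM, such as AKR1C3 and SERPINB2, for which each library holds few counts.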

Other observations

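Other lists had few called members, and a share near that over all genes (2.94% higher and 4.05% lower) is no result about a list. Of 20 tested aminoacyl-tRNA synthetases, which load amino acids onto tRNA, 4 were lower and none higher (GARS1, MARS1, TARS1 and YARS1), 0 of them with the gene-specific offset; 1 was lower without 2-MiCit replicate 1 or 3 and 2 without 2-MiCit replicate 2. Of 16 tested histone genes 4 were lower and 2 higher, with 2 and 0 under the offset, 2 and 0 without control replicate 3 or without 2-MiCit replicate 1, 2 or 3, and 2 and 1 without control replicate 1; no histone gene was higher without control replicate 4 or 2-MiCit replicate 4 either, and 1 was without control replicate 2. Of 17 tested interferon-response genes the 2 called were lower, OAS1 and OAS3, which make the activator of an antiviral RNase; 0 were called with the offset, and 1 without control replicate 1, 2 or 3 or without 2-MiCit replicate 2, 3 or 4. Ornithine decarboxylase (ODC1), which starts polyamine synthesis, was the 1 called gene of 10 tested in its list and was lower, as was HPRT1, of purine salvage, among 19 tested purine genes. Of the differentiation genes, CDX1 was the 1 of 13 absorptive genes called and was higher, and TFF1 and KLF4 were lower among 12 secretory genes. None of ODC1, HPRT1, CDX1, TFF1 and KLF4 was called with the offset, and each of these 4 list counts fell to 0 in at least 3 of the 8 fits without a library.

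Families picked out after the data were seen gave these counts. Of 7 tested 14-3-3 proteins 3 were lower (SFN, YWHAZ and YWHAH) and all 7 were below a fold of 1; 2 were called with the offset, 1 without control replicate 2 or 3 or 2-MiCit replicate 1 or 3, and 5 without 2-MiCit replicate 4. Of 8 tested condensin subunits 3 were lower (NCAPG, NCAPG2 and SMC4), 0 with the offset and 2 to 4 without 1 library. Of 17 tested aldehyde dehydrogenases 3 were higher (ALDH1A1, ALDH3A1 and ALDH5A1) and 1 lower (ALDH1A3); with the offset 1 was higher and 0 lower, and without 1 library 1 to 3 were higher and 0 to 1 lower. Of 21 tested integrins 2 were lower, ITGA2 and ITGB1, and none was higher; with the offset 1 was lower. All 41 tested proteasome subunits and activators together, a wider set than the list of the report, had 21 lower and none higher, 8 lower with the offset and 12 to 27 without 1 library.

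Further promoter searches, chosen after the data were seen and over 250 bases before to 50 after each start on either strand, gave these counts. TGTTTAC, the FOXO letters, were in 2 of 18 promoters of tested FOXO list genes and in 3.41% of all promoters. NACGTG, the hypoxia response letters, were in 7 of 18 promoters of tested glycolysis genes and in 21.6% of all promoters (26.4% of those of tested genes). CCAAT was in 5 of 10 tubulin promoters and in 35.7% of all promoters.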
